A study of Drosophila melanogaster with 9 samples.

Results

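Myoblast fusion genes are described here in *Drosophila melanogaster* embryos that carry either of 2 mutant alleles of *Kah*. The 10 genes are *kirre*, *rst*, *rols*, *sns*, *hbs*, *lmd*, *sing*, *mbc*, *blow* and *Vrp1*. They were chosen by name, for their roles in founder cells and fusion-competent myoblasts, with earlier results of these data known. All 10 are among the 14306 genes listed in both deposited tables, and all 10 passed the filter on low values in every comparison.

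Fly muscle fibres are made by cell fusion: a founder cell, which sets the identity of the fibre, recruits fusion-competent myoblasts. Immunoglobulin-family proteins on the founder cell bind partners of the same family on the fusion-competent cell, and actin built at the contact, in particular by the fusion-competent cell, drives the membranes together. Founder cells and fusion-competent cells also fuse to make the visceral muscle of the midgut, the tissue in which the study followed *Kah*, a transcription factor of the Snail/Scratch family.

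RNA was sequenced from whole embryos aged 5-16 h, in 3 biological replicates of each of 3 genotypes. *KahΔATG* (kah-deltaATG in the labels) is a CRISPR/Cas9 allele in which most of exon 2 and the start codon are deleted, and *KahΔZnF* (kah-deltaznf) is one with an in-frame deletion of the zinc-finger region. The control, labelled wild type, is the strain *w1118*, and its 3 libraries serve in the comparison of each mutant. The methods describe 1 embryo collection per genotype, so collection and genotype cannot be told apart, and p-values measure only the spread between replicates of a collection. In whole embryos, fewer cells of a type and less RNA per cell cannot be told apart either.

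Values are normalized counts, the reads on a gene divided by a size factor for the library. Each mutant has a table of its own with its own size factors, so *w1118* libraries have slightly different values beside each mutant. Libraries held 17990440 to 20036769 reads on genes. Between 8.67% and 11.2% of these fell on mitochondrial genes in *KahΔZnF* replicate 1 and *w1118* replicates 2 and 3, and 15.3% to 16.6% in the other 6 libraries, which include all of *KahΔATG*. *KahΔZnF* replicate 1 and *w1118* replicate 1, each on the other side of this split from its own group, stood apart from their replicates: chi-square per degree of freedom was 43.8 to 67.1 in pairs with either and 5.20 to 8.58 in all other pairs of replicates. Reads on *Kah* itself were present in every library: 1700.2, 1569 and 1619.9 in *KahΔATG*, against 380.0, 357 and 369 in *w1118*, and 774, 683 and 773 in *KahΔZnF*, against 377, 362 and 375 in *w1118*. Both deletions leave part of the transcript in place, and the log2 fold change of *Kah* was 2.14 in *KahΔATG* (limma adjusted p = 2.8e-07) and 0.998 in *KahΔZnF* (limma adjusted p = 6.1e-06).

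Most of the 10 genes differed little from *w1118*: *lmd*, the transcription factor of fusion-competent myoblasts, and *sing*, a membrane protein, were higher in *KahΔZnF*, and none was called in *KahΔATG*. A gene was called changed where limma gave an adjusted p of 0.05 or less and its log2 fold change was 0.59 or more in either direction, the limits that the study used. In *KahΔATG* 0 of the 10 genes were called, where 25.3% of the 10972 genes tested were called and 14.7% were called higher. At an unadjusted p under 0.05 limma picked 4 of the 10, and 6244 of all 10972 genes. Both edgeR and DESeq2 called 0 of the 10, as did limma's test against a fold change of 1.5 rather than against 0. That test was passed by 9.59% of all genes. At an unadjusted p under 0.05 it picked 0 of the 10, and 1634 of all genes. In *KahΔZnF* 2 of the 10 genes were called, where 49.3% of 10957 genes were called: *sing* and *lmd*, both higher, against 23.8% of all genes called higher; 0 were called lower, against 25.5% of all genes. Between the mutants 1 of the 10 was called, *sing*, higher in *KahΔZnF*, where 18.6% of 10850 genes were called and 5.68% were called higher.

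The log2 fold changes of the 10 genes ran between -0.14 and 0.35 in *KahΔATG*, with a median of 0.06 beside -0.02 over all genes tested. In *KahΔZnF* they ran between -0.42 and 0.99, with a median of 0.09 beside 0.00 over all genes tested. At an adjusted p of at most 0.05 with no limit on size, limma picked *rst* and *Vrp1* in *KahΔATG* (2 of 10, where 50.8% of all genes passed), and *rst*, *rols*, *lmd* and *sing* in *KahΔZnF* (4 of 10, where 70.6% passed). The count in *KahΔATG* rested on single libraries: it was 4 without *w1118* replicate 1, when *lmd* and *mbc* passed too, and 1 without *KahΔATG* replicate 1 or 3, when *Vrp1* did not. With a replicate block it was 4 in *KahΔATG* and 3 in *KahΔZnF*. With all 9 libraries and the mitochondrial split as a term it was 2 in *KahΔATG* and 6 in *KahΔZnF*. DESeq2 gave 3 in *KahΔATG* and 4 in *KahΔZnF*. The shares of all genes at these alternative settings are not given here. The libraries of mutant and control did not overlap for 4 of the 10 genes in *KahΔATG* (58.2% of all genes) and for 5 of the 10 in *KahΔZnF* (74.5% of all genes). The shares of these genes that were called or did not overlap were thus below those of all genes in both mutants. With 10 genes, chosen with earlier results known, this is a description of these genes, and the difference in shares was not tested.

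**Figure D1:**
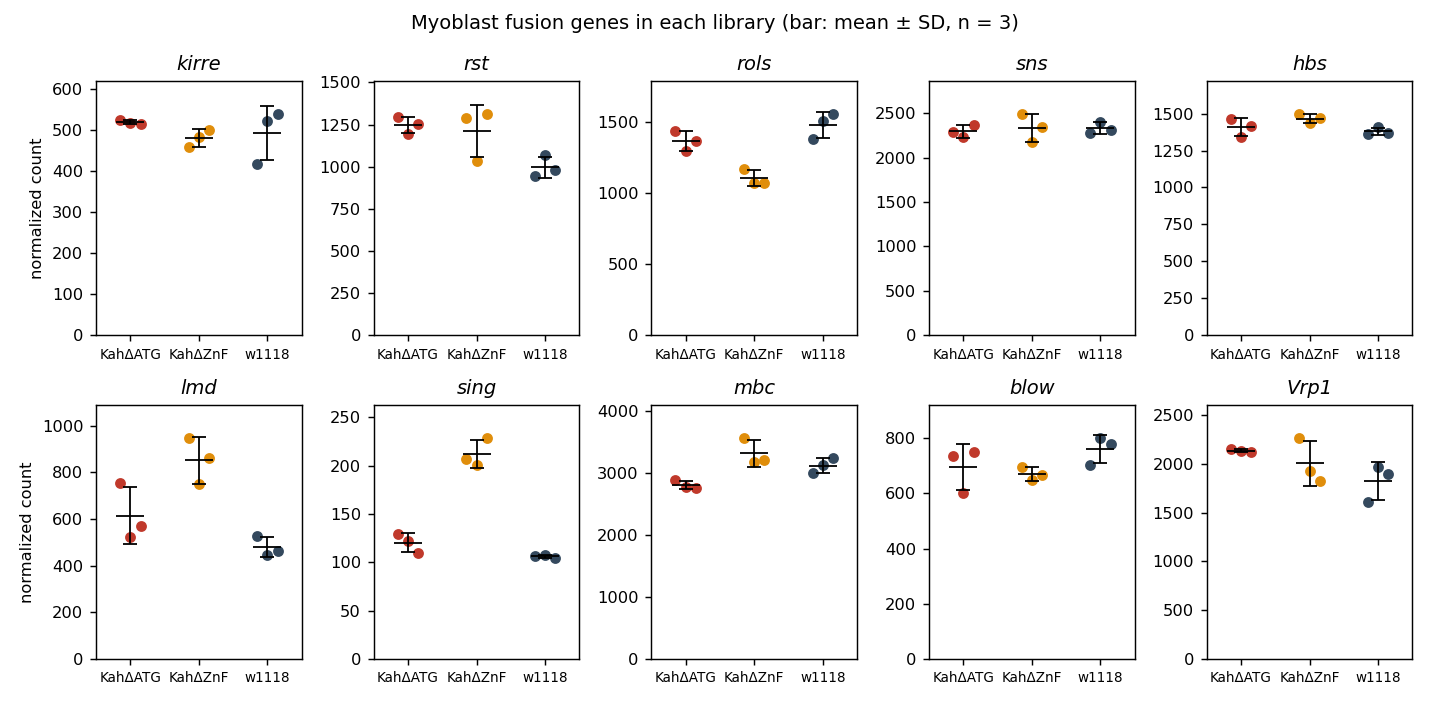
Normalized counts (vertical axis, from 0) of the 10 genes in each of 9 libraries, scaled together, for *KahΔATG*, *KahΔZnF* and *w1118*. Points are libraries and bars the mean ± SD of 3 libraries; the *KahΔZnF* points of *sing* and *lmd* lie above all *w1118* points, and those of *rols* lie below all points of *KahΔATG* and *w1118*.

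Founder cells carry *kirre* and *rst*, which encode immunoglobulin-family adhesion proteins with overlapping roles in drawing fusion-competent myoblasts to the founder. Neither was called in either mutant. The gene *kirre* (FBgn0028369) lies on chromosome X from 2740384 to 3134532 in BDGP6, on the plus strand, and *rst* (FBgn0003285) from 2950399 to 2973834, on the minus strand. The span of *rst*, 23.4 kb, thus lies wholly within the 394 kb of *kirre*, 210 kb from its start. Their exons share no base in the annotation, so reads of spliced RNA of this pair can be told apart even without strand. In the annotation 1 exon of *kirre* lies between exons of *rst*, and the exons of *rst* lie between exons of *kirre*. Reads of unspliced RNA of either gene could thus fall on exons of the other, and whether reads were counted by strand is not given.

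**Figure D2:**
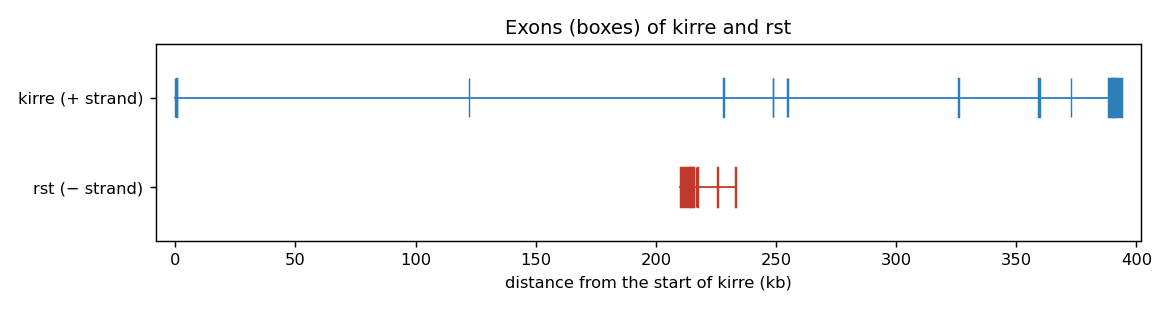
Exons of *kirre* and *rst* (boxes) along the distance from the start of *kirre* in kb, with *kirre* on the plus strand above and *rst* on the minus strand below it. The whole of *rst* sits inside *kirre*, and no exon of one overlaps an exon of the other.

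The level of *kirre* was 529, 533 and 524 in *KahΔATG* replicates 1 to 3, against 431, 525 and 541 in *w1118* replicates 1 to 3. In *KahΔZnF* it was 469, 495 and 514, against 428, 534 and 549 in *w1118*. Both mutants overlapped *w1118*, and the lowest value of all came from *w1118* replicate 1. The log2 fold change in limma was 0.09 (SE 0.10, 95% interval -0.14 to 0.32, adjusted p = 0.48) in *KahΔATG* and -0.03 (SE 0.12, 95% interval -0.28 to 0.23, adjusted p = 0.86) in *KahΔZnF*. *w1118* replicate 1 is the control library with the higher mitochondrial share, and without it the value for *KahΔATG* was -0.01. The sign of the difference in *kirre* was not the same on both sides of the mitochondrial split: among libraries of higher share it was 0.29 between 3 *KahΔATG* libraries and 1 *w1118* library and 0.24 between 2 *KahΔZnF* libraries and 1 *w1118* library, and among those of lower share it was -0.21 between 1 *KahΔZnF* library and 2 *w1118* libraries. A fit of all 9 libraries with the split as a term gave 0.16 in *KahΔATG* and 0.01 in *KahΔZnF*, with limma adjusted p values of 0.27 and 0.92.

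More of *rst* was measured in the mutants, though below the limit of 0.59. In *KahΔATG* its values were 1309, 1233 and 1274, against 979, 1075 and 984 in *w1118*. All 3 *KahΔATG* libraries lay above all *w1118* libraries (29.6% of all genes did so). The log2 fold change in *KahΔATG* was 0.33 (SE 0.07, 95% interval 0.17 to 0.49, adjusted p = 0.0036), and with any library left out limma kept it between 0.31 and 0.37, at adjusted p values up to 0.020. In *KahΔZnF* the values were 1322, 1059 and 1347, against 970.2, 1093 and 999 in *w1118*. Here replicate 2 fell among the *w1118* values while the others lay above them. The log2 fold change in *KahΔZnF* was 0.28 (SE 0.11, 95% interval 0.04 to 0.51, adjusted p = 0.039), and the adjusted p in limma was above 0.05 without *KahΔZnF* replicate 1 (0.11) or 3 (0.15), or *w1118* replicate 1 (0.070) or 3 (0.087).

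The third founder gene, *rols* (FBgn0041096, chromosome 3L from 12008225 to 12064859), encodes a scaffold protein that binds the inner part of Kirre and links it to Mbc. Its values were 1449.9, 1335 and 1394 in *KahΔATG*, against 1428, 1518 and 1566 in *w1118*, and 1200.3, 1102 and 1102 in *KahΔZnF*, against 1415, 1543 and 1590.5 in *w1118*. *KahΔATG* replicate 1 lay between the *w1118* libraries, whereas all *KahΔZnF* libraries lay below all *w1118* libraries (37.1% of all genes did so). For *rols* limma gave a log2 fold change of -0.11 (SE 0.07, 95% interval -0.26 to 0.04, adjusted p = 0.20) in *KahΔATG*. In *KahΔZnF* it was -0.42 (SE 0.08, 95% interval -0.60 to -0.23, adjusted p = 0.0011), below 0 but within the limit of 0.59, so *rols* was not called. Among libraries with the higher mitochondrial share its log2 difference between 2 *KahΔZnF* libraries and 1 *w1118* library was -0.36, and among those with the lower share, for 1 *KahΔZnF* library and 2 *w1118* libraries, it was -0.38.

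Fusion-competent myoblasts carry *sns* and *hbs*, the partners of *kirre* and *rst*. The product of *sns* is the main receptor of these cells and that of *hbs* a relative that acts beside it. Both genes lie on chromosome arm 2R, *sns* (FBgn0024189) from 8798489 to 8856091 and *hbs* (FBgn0029082) from 15011396 to 15042134. The values of *sns* were 2309, 2302 and 2417 in *KahΔATG*, against 2352, 2425 and 2329.9 in *w1118*. They were 2551, 2228 and 2408 in *KahΔZnF*, against 2331, 2465 and 2366 in *w1118*. Of the 10 genes *sns* moved least, and its libraries overlapped *w1118* in both mutants. Its log2 fold change in limma was -0.02 (SE 0.06, 95% interval -0.15 to 0.11, adjusted p = 0.83) in *KahΔATG* and 0.00 (SE 0.08, 95% interval -0.17 to 0.18, adjusted p = 0.97) in *KahΔZnF*. Both intervals lay well inside the limit of 0.59. They rest on the spread between replicates of a collection, so they do not cover a difference between collections.

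The values of *hbs* were 1480.4, 1387 and 1439.9 in *KahΔATG*, against 1409, 1418 and 1377 in *w1118*. In *KahΔZnF* they were 1532, 1472 and 1509, against 1396, 1441 and 1399 in *w1118*. Replicate 2 of *KahΔATG* lay within the range of the control values and the other *KahΔATG* libraries above it, whereas all *KahΔZnF* libraries lay above all *w1118* libraries (37.4% of all genes did so) by a small margin. In limma *hbs* had a log2 fold change of 0.03 (SE 0.06, 95% interval -0.10 to 0.17, adjusted p = 0.66) in *KahΔATG* and 0.09 (SE 0.07, 95% interval -0.07 to 0.26, adjusted p = 0.29) in *KahΔZnF*, so neither passed.

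The gene *lmd* (FBgn0039039, chromosome 3R from 23021222 to 23026713) encodes a zinc-finger transcription factor of the Gli family that gives fusion-competent myoblasts their identity and is needed for expression of *sns*. It was higher in *KahΔZnF*. Its values there were 971, 767 and 885, against 542, 457 and 475 in *w1118*, and all *KahΔZnF* libraries lay above all *w1118* libraries. In limma its log2 fold change was 0.83 (SE 0.11, 95% interval 0.58 to 1.08, adjusted p = 7.6e-05), between 0.75 and 0.92 with any 1 library left out (0.75 without *KahΔZnF* replicate 1 and 0.90 without *w1118* replicate 1, the libraries that stood apart). In *KahΔATG* the values were 760.2, 539 and 579, against 547, 449 and 467 in *w1118*, so that *KahΔATG* replicate 2 fell below the highest *w1118* library. That log2 fold change was 0.35 (SE 0.14, 95% interval 0.04 to 0.65, adjusted p = 0.058), and it was 0.20 without *KahΔATG* replicate 1, the highest of that genotype. Replicate 1 gave the highest *lmd* value in each of the 3 genotypes.

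Within the libraries of higher mitochondrial share, the log2 difference of *lmd* between 2 *KahΔZnF* libraries and 1 *w1118* library was 0.60, and within those of lower share, between 1 *KahΔZnF* library and 2 *w1118* libraries, it was 1.06. A fit of all 9 libraries with that split as a term gave 0.83 (limma adjusted p = 1.1e-04). In limma's test against a fold change of 1.5, *lmd* did not pass (adjusted p = 0.085); 30% of all genes passed that test in *KahΔZnF*. While *lmd* was higher in *KahΔZnF*, *sns*, which depends on *lmd* in the mesoderm, was at 2396 ± 162 in *KahΔZnF* and 2387 ± 69.5 in *w1118* (SD, n = 3 each).

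The other called gene, *sing* (FBgn0261245, chromosome X from 16679297 to 16681784), encodes a multipass membrane protein with a MARVEL domain that is needed for fusion. Its values were 212, 206 and 235 in *KahΔZnF*, against 109, 109.8 and 107 in *w1118*. They were 130.4, 126 and 112 in *KahΔATG*, against 110.4, 108 and 105 in *w1118*. Control libraries differed little from each other, and libraries of both mutants lay above all of them, by a wide margin in *KahΔZnF* and a narrow one in *KahΔATG*. The log2 fold change in limma was 0.99 (SE 0.13, 95% interval 0.71 to 1.27, adjusted p = 4.5e-05) in *KahΔZnF* and 0.18 (SE 0.13, 95% interval -0.11 to 0.47, adjusted p = 0.28) in *KahΔATG*. In *KahΔZnF* it lay between 0.94 and 1.03 with any 1 library left out, and was 1.001 among libraries of higher and 0.96 among those of lower mitochondrial share. It also passed limma's test against a fold change of 1.5 (adjusted p = 0.017).

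The reads of *sing* carry a limit of their own. In the annotation 59.9% of its exon bases, 1361 bases, are shared with *Axs* on the other strand, and whether reads were counted by strand is not given in the sources used here, so reads of the 2 genes may not be told apart. Values of *Axs* were 85.1, 63.3 and 108 in *KahΔZnF*, against 51.9, 70.3 and 66.9 in *w1118*, and overlapped. The log2 fold change of *Axs* in limma was 0.41 (SE 0.22, 95% interval -0.08 to 0.91, adjusted p = 0.12) in *KahΔZnF* and 0.12 (SE 0.21, 95% interval -0.35 to 0.60, adjusted p = 0.65) in *KahΔATG*. Its part in the result for *sing* was not tested.

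The remaining 3 genes act on the actin cytoskeleton at the contact, and none was called in either mutant. The first of them is *mbc* (FBgn0015513, chromosome 3R from 23781765 to 23801634), whose product, the fly relative of DOCK180, activates the small GTPase Rac. Its values were 2911, 2858 and 2809 in *KahΔATG*, against 3089.8, 3144 and 3248 in *w1118*. In *KahΔZnF* they were 3645, 3249 and 3297, against 3062, 3195 and 3298 in *w1118*. All *KahΔATG* libraries lay below all *w1118* libraries (28.6% of all genes did so), and *KahΔZnF* overlapped *w1118*. Limma put the log2 fold change of *mbc* at -0.14 (SE 0.06, 95% interval -0.27 to -0.02, adjusted p = 0.057) in *KahΔATG* and 0.09 (SE 0.08, 95% interval -0.08 to 0.27, adjusted p = 0.32) in *KahΔZnF*.

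The product of *blow* (FBgn0004133, chromosome arm 2R from 7580488 to 7587079) acts in fusion-competent myoblasts, where it competes with WASp for Vrp1. The values of *blow* were 744, 618 and 763 in *KahΔATG*, against 728, 807 and 784 in *w1118*. In *KahΔZnF* they were 713, 664 and 686, against 722, 820.0 and 796 in *w1118*. *KahΔATG* overlapped *w1118*, whereas all *KahΔZnF* libraries lay below all *w1118* libraries. Limma put *blow* at a log2 fold change of -0.13 (SE 0.10, 95% interval -0.35 to 0.09, adjusted p = 0.29) in *KahΔATG* and -0.18 (SE 0.09, 95% interval -0.38 to 0.02, adjusted p = 0.097) in *KahΔZnF*, so neither passed. Exons of *blow* share 188 bases, 6.60% of its exon bases, with *Vps13* on the other strand.

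*Vrp1* (FBgn0243516, chromosome arm 2R from 22106107 to 22122562) encodes the fly relative of WIP, the protein that stabilizes WASp. Its values were 2179, 2205 and 2163 in *KahΔATG*, against 1664, 1988 and 1906 in *w1118*. In *KahΔZnF* they were 2324, 1982 and 1872, against 1649, 2021 and 1935 in *w1118*. All *KahΔATG* libraries lay above all *w1118* libraries, and *KahΔZnF* overlapped *w1118*. For *Vrp1* the log2 fold change in limma was 0.24 (SE 0.08, 95% interval 0.07 to 0.41, adjusted p = 0.025) in *KahΔATG*, below the limit of 0.59, and 0.14 (SE 0.11, 95% interval -0.10 to 0.38, adjusted p = 0.26) in *KahΔZnF*. *w1118* replicate 1 had the lowest value of *Vrp1*, and without it the log2 fold change in *KahΔATG* was 0.16. Against that library alone, the *w1118* library of higher mitochondrial share, the difference was 0.39. The adjusted p in limma was above 0.05 without *KahΔATG* replicate 1 (0.070), 2 (0.076) or 3 (0.064). Exons of *Vrp1* share 39 bases with *CG30281* and 100 bases with *mei-S332*, both on the other strand.

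**Figure D3:**
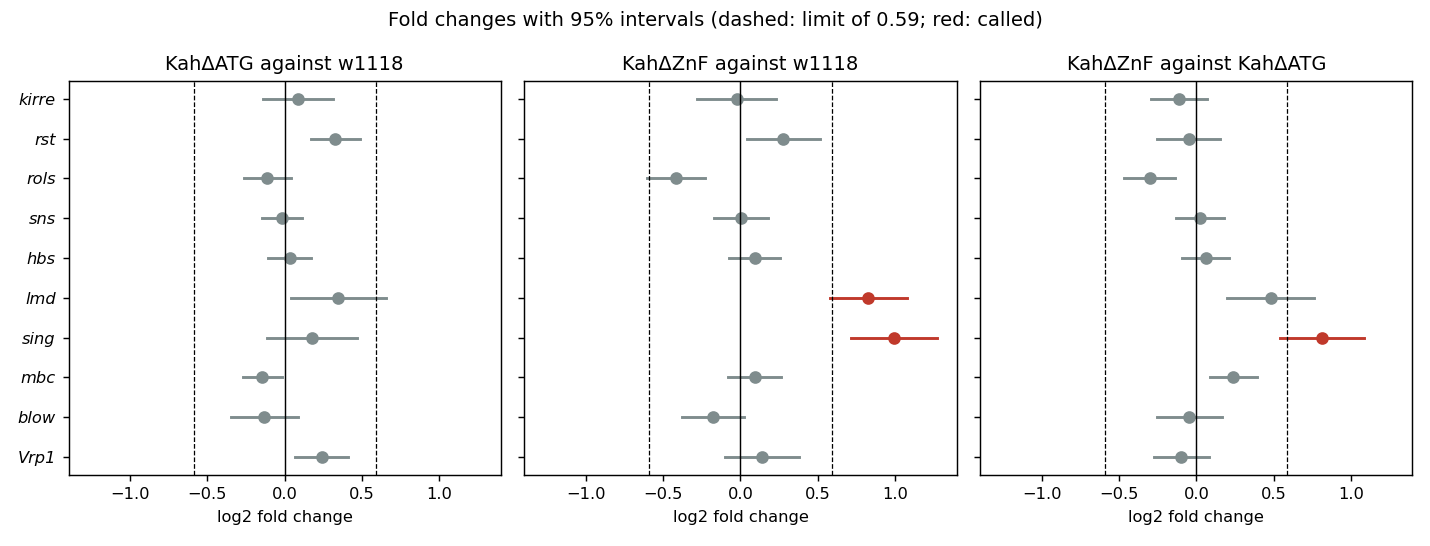
Log2 fold change (horizontal axis) of each of the 10 genes with its 95% interval in limma, for *KahΔATG* against *w1118*, *KahΔZnF* against *w1118* and *KahΔZnF* against *KahΔATG*. Dashed lines mark the limit of 0.59 and red marks called genes: 0 genes in *KahΔATG*, *lmd* and *sing* in *KahΔZnF*, and *sing* between the mutants.

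The mutants were also compared with each other, on reads of both tables scaled together. The gene *sing* was higher in *KahΔZnF*, at 207, 201 and 229, against 129, 122 and 109.6 in *KahΔATG*, with no overlap (32.7% of all genes lay wholly above). Its log2 fold change in limma was 0.82 (SE 0.13, 95% interval 0.54 to 1.09, adjusted p = 2.6e-04). Tested in limma against a fold change of 1.5 *sing* did not pass (adjusted p = 0.57), nor did any other of the 10, where 2.85% of all genes passed. At an unadjusted p under 0.05 that test picked 1 of the 10, and 869 of all 10850 genes.

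A further 3 genes passed an adjusted p of 0.05 in limma with a fold change below the limit, where 51.7% of all genes passed. For *lmd* the values were 948, 748 and 861 in *KahΔZnF*, against 753, 522 and 569 in *KahΔATG*. These overlapped through *KahΔATG* replicate 1, and the log2 fold change was 0.48 (SE 0.13, 95% interval 0.20 to 0.76, adjusted p = 0.0081); without that library *lmd* was called, at 0.64 (limma adjusted p = 8.3e-04). For *rols* the values were 1172, 1075 and 1073 in *KahΔZnF*, against 1436, 1294 and 1369 in *KahΔATG*, all lower in *KahΔZnF* (27.7% of all genes lay wholly below), and the log2 fold change was -0.30 (SE 0.08, 95% interval -0.47 to -0.14, adjusted p = 0.0052). For *mbc* they were 3559.9, 3168 and 3211 in *KahΔZnF*, against 2883, 2772 and 2759 in *KahΔATG*, all higher in *KahΔZnF*, and the log2 fold change was 0.24 (SE 0.07, 95% interval 0.09 to 0.39, adjusted p = 0.013); the adjusted p was 0.054 without *KahΔATG* replicate 2 and 0.052 without replicate 3. In all, libraries of the mutants did not overlap for 4 of the 10 genes, *kirre*, *rols*, *sing* and *mbc*, against 60.4% of all genes.

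For the other 6 genes the difference between the mutants was small and its interval was narrow. The log2 difference, *KahΔZnF* over *KahΔATG*, was -0.11 (95% interval -0.29 to 0.07) for *kirre*, -0.05 (-0.25 to 0.15) for *rst* and 0.02 (-0.13 to 0.18) for *sns*. It was 0.06 (-0.09 to 0.21) for *hbs*, -0.05 (-0.26 to 0.16) for *blow* and -0.10 (-0.28 to 0.08) for *Vrp1*. None of these intervals reached the limit of 0.59 on either side.

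Per length of gene, *mbc* and *Vrp1* stood at the top of the 10 genes and *kirre* and *sing* at the bottom in all genotypes. Normalized counts per kb, scaled together over 9 libraries, were 376 ± 9.11 for *mbc* in *KahΔATG*, 444 ± 28.8 in *KahΔZnF* and 417 ± 16.0 in *w1118* (SD, n = 3 each). *Vrp1* followed in *KahΔZnF* (383 ± 44.4) and *w1118* (348 ± 36.5), and stood first in *KahΔATG* (408 ± 3.15). The receptors of fusion-competent cells stood in the middle: *sns* was at 264 ± 8.22 in *KahΔATG*, 269 ± 18.3 in *KahΔZnF* and 268 ± 7.82 in *w1118*, and its libraries overlapped those of the gene next in order in each genotype. The receptor *rst*, grouped here with founder cells, was at 199.6 ± 8.02 in *KahΔATG*, 194 ± 24.9 in *KahΔZnF* and 159.6 ± 10.01 in *w1118*.

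The order of the lower genes differed with genotype. In *KahΔZnF*, *lmd* (254 ± 29.9) stood in place 5, overlapping *hbs* above and *blow* below, whereas in *w1118* it stood in place 8 (143 ± 12.9), with libraries overlapping those of *rst* just above it. In *KahΔZnF*, *sing* (93.5 ± 6.44) stood above *kirre* (61.1 ± 2.71), which was last, with no overlap. In *KahΔATG* and *w1118* *sing* was last (52.9 ± 4.34 in *KahΔATG*, 46.8 ± 0.63 in *w1118*), below *kirre* (66.0 ± 0.60 in *KahΔATG*, 62.7 ± 8.32 in *w1118*), again with no overlap.

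**Figure D4:**
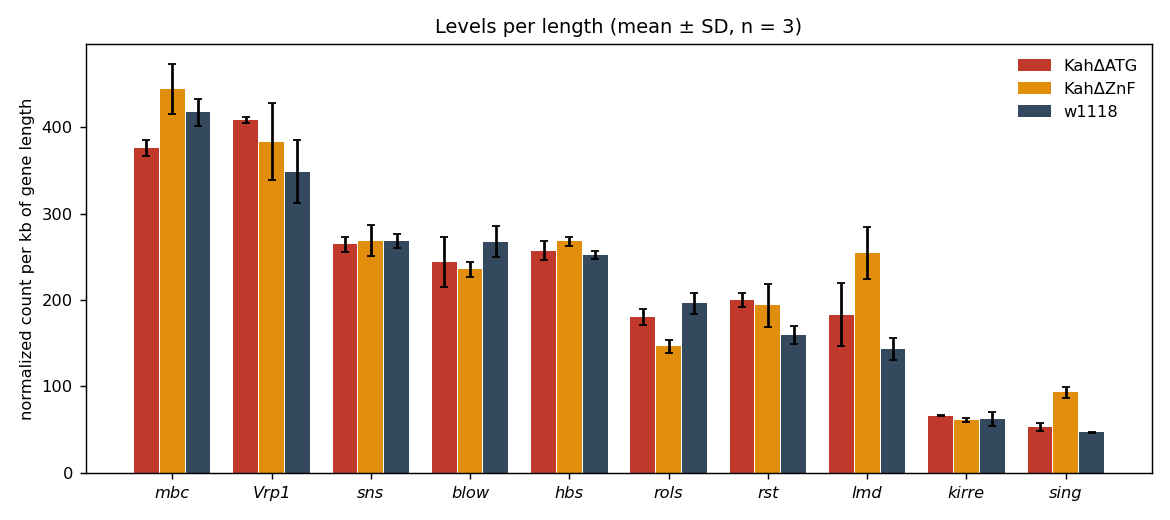
Normalized count per kb of gene length (vertical axis, from 0; bars are means and error bars the SD of 3 libraries) for *KahΔATG*, *KahΔZnF* and *w1118*, with genes in the order of their *w1118* level. The bars of *lmd* and *sing* are tallest in *KahΔZnF*, at 254 and 93.5 per kb, and the bar of *rols* is shortest there, at 146.

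A ratio was taken of the per-kb level of *sns* and *hbs* over that of *kirre* and *rst*. In whole embryos other cells such as nephrocytes also use *sns* and *kirre*, so the ratio does not measure the balance at the contact. It was 1.94, 1.95 and 2.00 in *KahΔATG*, 2.11, 2.26 and 1.97 in *KahΔZnF*, and 2.49, 2.25 and 2.30 in *w1118*. In *KahΔATG* the log2 fold change in limma was 0.33 for *rst*, 0.09 for *kirre*, 0.03 for *hbs* and -0.02 for *sns*. *KahΔATG* libraries lay below all *w1118* libraries, and *KahΔZnF* replicate 2 fell between the *w1118* values. Other ratios did not order the genotypes in this way. The 5 genes grouped here with fusion-competent cells (*sns*, *hbs*, *lmd*, *blow* and *Vrp1*) were set over the 3 grouped with founder cells (*kirre*, *rst* and *rols*). This gave 3.07, 2.98 and 3.06 in *KahΔATG* and 3.62, 3.61 and 3.31 in *KahΔZnF*, against 3.15, 3.03 and 2.99 in *w1118*. *KahΔZnF* thus lay above *w1118* and *KahΔATG* overlapped it. This ratio contains *lmd*, which was called higher in *KahΔZnF*, at 254 per kb against 143 in *w1118*. It is thus not a separate result from that call, and a ratio without *lmd* was not taken. For *sns* over *kirre* alone both mutants overlapped *w1118*. These ratios are descriptions, with no test.

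Genes with the most similar pattern over the 9 libraries were found for *kirre* and *sns* as the smallest root-mean-square difference of centred log2 values, among 9353 genes with a mean normalized count of at least 50. For *kirre* these were *CG33229* (0.063), *fdl* (0.066) and *Snap24* (0.068). For *sns* they were *Wnt4* (0.032), *Kdm2* (0.033) and *trc* (0.036). None of the other 8 fusion genes was among them, which says little, as only 3 places were open among 9353 genes. The log2 fold changes of *sns* in limma were -0.02 in *KahΔATG* and 0.00 in *KahΔZnF*. Genes near *sns* by this measure can thus be any that also differed little. The libraries these values come from are the same 9 for every gene, and shared regulation was not tested.

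Beyond these 10 genes, fusion needs widely used cell machinery: small GTPases with their adaptors, the complexes that nucleate branched actin, and the cortical tension that the founder cell sets against the invading cell. Of 30 such genes 3 were higher and 0 lower in *KahΔATG* (25.3% of all genes were called), and 7 were higher and 1 lower in *KahΔZnF* (49.3% of all genes were called). The 3 higher in *KahΔATG* were higher in *KahΔZnF* too and belong to the small GTPase and adaptor list. They were *Pak*, a kinase that Rac switches on, *Mtl*, a GTPase of the Rac family, and *Ced-12*, the relative of ELMO that works with Mbc.

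*Pak* was at 3298 ± 202 in *KahΔATG* and 1658 ± 37.1 in *w1118* (SD, n = 3 each), and its log2 fold change in limma was 0.99 (SE 0.07, adjusted p = 4.2e-06). In *KahΔZnF* it was at 4149.6 ± 101, against 1670.1 ± 41.8 in *w1118*, with a log2 fold change of 1.31 (SE 0.07, adjusted p = 1.6e-07). *Pak* thus differed from *w1118* by more than any of the 10 fusion genes did in the same mutant. For *Mtl* the log2 fold change in limma was 0.86 (SE 0.07, adjusted p = 9.3e-06) in *KahΔATG*, at 2059 ± 44.8 against 1133 ± 66.0 in *w1118*, and 1.02 (SE 0.08, adjusted p = 2.0e-06) in *KahΔZnF*, at 2311 ± 144 against 1141 ± 49.7 in *w1118*. For *Ced-12* it was 0.63 (SE 0.07, adjusted p = 7.0e-05) in *KahΔATG*, at 1231 ± 55.3 against 796 ± 13.4 in *w1118*, and 0.93 (SE 0.09, adjusted p = 7.4e-06) in *KahΔZnF*, at 1539.8 ± 156 against 802 ± 8.58 in *w1118*. While *Ced-12* was higher in both mutants, its partner *mbc* was called in neither.

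Of the 10 small GTPase and adaptor genes 5 were higher in *KahΔZnF*, where 23.8% of all genes were called higher. The others were *Crk*, an adaptor, and *Rac1*, with log2 fold changes in limma of 0.89 (SE 0.12, adjusted p = 7.5e-05) and 0.66 (SE 0.07, adjusted p = 1.7e-05). In *KahΔATG* *Crk* was at 0.44 (limma adjusted p = 5.2e-04) and *Rac1* at 0.45 (limma adjusted p = 1.6e-04), both under the limit of 0.59. *Rac2* of this list went the other way and was not called. Its log2 fold change in limma was -0.38 (SE 0.06, adjusted p = 0.0011) in *KahΔATG* and -0.52 (SE 0.08, adjusted p = 2.4e-04) in *KahΔZnF*, wholly below *w1118* in both. In the actin nucleation list, 2 of 14 genes were higher in *KahΔZnF*, *Arp3*, a subunit of the Arp2/3 complex, at 0.86 (SE 0.08, adjusted p = 5.2e-06), and *Sra-1*, a subunit of the SCAR complex, at 0.77 (SE 0.07, adjusted p = 6.9e-06). In the same list 1 gene was lower in *KahΔZnF*, *WASp*, the nucleation factor that binds Vrp1, at -0.76 (SE 0.11, adjusted p = 8.4e-05). The names in this paragraph were picked with the values in view. In *KahΔATG* 0 of the 14 were called by limma, edgeR or DESeq2, and 5 had an unadjusted p under 0.05 in limma. *Arp3* was just under the limit of 0.59 there, at a log2 fold change of 0.587 (SE 0.061, limma adjusted p = 5.1e-05). *Sra-1* was at 0.43 (limma adjusted p = 2.6e-04) and *WASp* at -0.38 (limma adjusted p = 0.012), in the same directions as in *KahΔZnF*. The 6 cortical tension genes had 0 calls in either mutant by limma, edgeR and DESeq2, with 4 in *KahΔATG* and 5 in *KahΔZnF* at an unadjusted p under 0.05 in limma. Of all genes tested, 6244 of 10972 in *KahΔATG* and 7962 of 10957 in *KahΔZnF* had an unadjusted p under 0.05 in limma.

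Markers of tissues show what moved beside these genes. Myoblasts and the mesoderm they come from (11 genes with *twi* and *Mef2* among them) had 0 calls in either mutant by limma, edgeR and DESeq2. Of all genes limma called 25.3% in *KahΔATG* and 49.3% in *KahΔZnF*. At an unadjusted p under 0.05 limma picked 2 of them in *KahΔATG*, beside 6244 of all 10972 genes. In *KahΔZnF* it picked 3, beside 7962 of all 10957 genes. The summed normalized count of these 11 genes, scaled together over 9 libraries, was 7018 to 7356 in *KahΔATG* and 7306 to 7876 in *KahΔZnF*, against 6979 to 7590.4 in *w1118*. Genes of differentiated muscle, the product of fusion, were lower: 12 of 13 in *KahΔZnF*, all but *Tm1*, with a median log2 fold change of -1.01, and 1 of 13 in *KahΔATG*, *Mhc*, with a median of -0.53. Of all genes 25.5% were called lower in *KahΔZnF* and 10.6% in *KahΔATG*. With no limit on size, 12 of the 13 had an adjusted p of at most 0.05 in limma in *KahΔATG* (50.8% of all genes). There 12 of the 13 also lay wholly below *w1118* (28.6% of all genes). The sum of the muscle genes was 330081 to 385150.2 in *KahΔATG* and 239476 to 302596 in *KahΔZnF*, against 446485 to 580838 in *w1118*. Structural muscle genes were thus lower in *KahΔZnF*, where *lmd* and *sing* were higher and *sns*, *hbs* and *kirre* were not called. The part of this in the values of *lmd* and *sing* was not tested.

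Markers of other tissues and stages moved as well. Of 9 neuron genes 8 were lower in *KahΔZnF*, all but *elav*, with a median of -1.03, where 25.5% of all genes were called lower. In *KahΔATG* 0 of the 9 were called by limma, edgeR and DESeq2, with a median of -0.46. At an unadjusted p under 0.05 limma picked 7 of the 9 in *KahΔATG*, beside 6244 of all 10972 genes. The sum of the neuron genes was 22791 to 26424 in *KahΔATG* and 16610.3 to 20103 in *KahΔZnF*, against 25956 to 37947 in *w1118*. Of the 7 genes of late epidermis and cuticle, *Ddc* and *ple* were lower and *knk* was higher in both mutants, and the sum was 31264 to 32927 in *KahΔATG* and 21675 to 25963 in *KahΔZnF*, against 30092 to 34749 in *w1118*. Of 11 early embryo genes *hb* was higher in both mutants, and in *KahΔZnF* *ftz* was higher and *h* lower. Their median was 0.08 in *KahΔATG* and 0.25 in *KahΔZnF*. Their sum was 4225 to 4390 in *KahΔATG* and 4717 to 4983 in *KahΔZnF*, against 4152 to 4327 in *w1118*. In *KahΔZnF* 6 of the 11 lay wholly above *w1118* (37.4% of all genes) and 1 wholly below (37.1%). Nephrocytes also use *sns* and *kirre*. Of their 2 markers tested, *Amnionless* was lower in *KahΔZnF*, and 0 were called in *KahΔATG* by limma, edgeR and DESeq2. Both had an unadjusted p under 0.05 in limma in *KahΔATG*, as did 6244 of all 10972 genes.

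**Figure D5:**
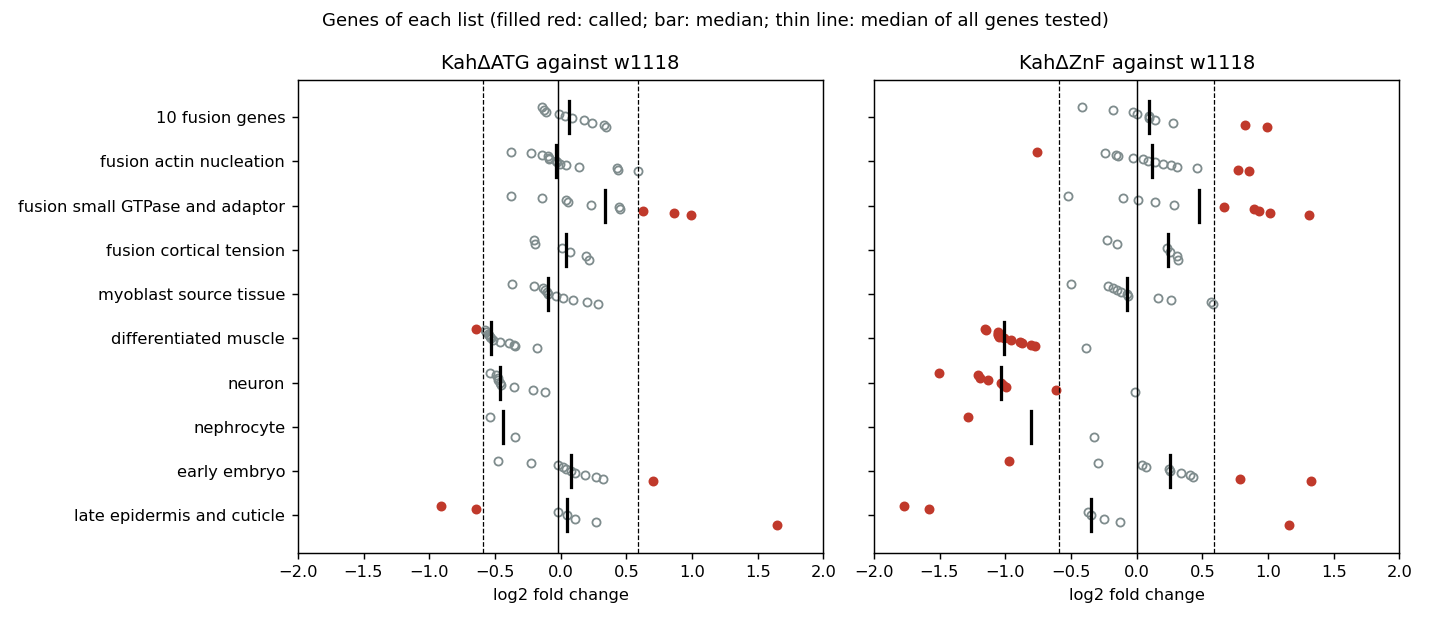
Log2 fold change (horizontal axis) of each gene of the 10 fusion genes, 3 lists of other fusion genes and 6 lists of tissue or stage markers, for *KahΔATG* against *w1118* and *KahΔZnF* against *w1118*. Filled red points were called, thick bars are list medians and the thin line is the median of all genes tested; the medians of the 10 fusion genes are 0.06 and 0.09, and those of differentiated muscle -0.53 and -1.01.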

How the data were processed

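Total RNA of whole embryos was sequenced as paired ends, 3 libraries per genotype. The submitters' processing notes name HISAT2 2.0.5, featureCounts 1.5.0-p3 and DESeq2 1.20.0, with reads aligned to BDGP6; the strand setting of the counting is not given in the sources used here. The signal that the authors deposited, in 1 table per mutant (14631 genes for *KahΔATG*, 14584 for *KahΔZnF*), is the reads on a gene divided by a size factor for the library. The deposited tables also hold the authors' fold changes with p-values and adjusted p-values, which were not used.

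The value of 1 read was found for each library, and on that step 100% of the values were whole reads (within 0.001). *w1118* reads were equal in both tables for all 14306 shared genes. Replicates differed by more than sampling noise in every pair, with chi-square per degree of freedom of 43.8 to 67.1 in pairs with *KahΔZnF* replicate 1 or *w1118* replicate 1 and 5.20 to 8.58 in the others; all 9 libraries were kept. Depth was 17990440 to 20036769 reads on genes per library, so low genes are measured with more counting error.

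Each mutant was compared with *w1118* within its table by limma 3.58.1 (R 4.3.3) with a mean-variance trend on log2(value + 1), for genes at 10 or more in at least 3 of 6 libraries. P-values were Benjamini-Hochberg adjusted over all genes tested, and fold changes are on the log2(value + 1) scale. Calls needed an adjusted p of 0.05 or less together with a log2 fold change of 0.59 or more in either direction. *KahΔZnF* was compared with *KahΔATG* on the reads of both tables, scaled together by medians of ratios over 9 libraries. Alternatives were edgeR's quasi-likelihood test (4.0.16) and DESeq2 (1.42.0) on the recovered reads, TMM scaling, no filter, pseudocounts of 0.5 and 10, a test against a fold change of 1.5, a replicate block, all 9 libraries in a single fit, the same with the split of libraries at 13% mitochondrial reads as a term, and each replicate left out. The tests were tried on simulated data.

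The members and gene lists were chosen with earlier results of these data known. All 10 members are named; of 30 other fusion genes, those called the same way in both mutants, and of marker lists counts, medians and sums, with the few called or uncalled genes named after their values were seen. The lists are fusion actin nucleation, fusion small GTPase and adaptor, fusion cortical tension, myoblast source tissue, differentiated muscle, neuron, nephrocyte, early embryo, and late epidermis and cuticle. Exon overlaps came from a later annotation (Ensembl) of the assembly, in which 98.5% of 14363 genes matched by ID had the deposited coordinates. Python 3.11.15 with matplotlib 3.10.9 drew the plots. No sequence was used here.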

Additional observations from a re-analysis of the deposited data

Results flagged for a closer look

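A difference between the 2 mutants, tested directly in limma, was found for 4 of the 10 fusion genes at an adjusted p of at most 0.05, where 51.7% of all genes tested passed. The log2 difference, *KahΔZnF* over *KahΔATG*, was 0.82 for *sing* (limma adjusted p = 2.6e-04) and 0.48 for *lmd* (limma adjusted p = 0.0081), both with a higher mean in *KahΔZnF*. It was 0.24 for *mbc* (limma adjusted p = 0.013) and -0.30 for *rols* (limma adjusted p = 0.0052), which had a lower mean in *KahΔZnF*. All 3 *KahΔZnF* libraries lay above all 3 *KahΔATG* libraries for *sing* and *mbc* and below them for *rols*, and those of *lmd* overlapped. Of these 4, *sing* alone had a log2 difference of at least 0.59.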

How the results depend on the processing

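Of 480 values of single fusion genes under the alternatives, 455 kept their direction and their side of the threshold, 22 changed sign, 2 were no longer called and 1 was newly called. Tested against a fold change of 1.5, 1052 genes were called in *KahΔATG*, 3288 in *KahΔZnF* and 309 between the mutants; of the 10 fusion genes 1 was called in *KahΔZnF* (*sing*, with *lmd* at a limma adjusted p of 0.085) and 0 between the mutants (*sing* at 0.57). With each replicate left out in turn, genes called ranged from 2385 to 3293 in *KahΔATG*, 5081 to 5627 in *KahΔZnF* and 1724 to 2242 between the mutants. Fusion genes called between the mutants then ranged from 1 to 2, the higher number coming without *KahΔATG* replicate 1, when *lmd* was called at 0.64. The other counts of calls stayed within 1.5 times.

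The 22 values that changed sign belong to genes not called, all near 0. For *sns* in *KahΔZnF* against *w1118* the log2 fold change was -0.019 in edgeR, -0.0026 in DESeq2, -0.0029 with TMM scaling and -4.5e-05 with all 9 libraries, and ran between -0.043 and 0.055 with a replicate left out. For *sns* in *KahΔATG* against *w1118* it was 0.043 with the mitochondrial split, and ran between -0.039 and 0.00080 with a replicate left out. For *sns* between the mutants it was -0.018 in edgeR, -0.011 in DESeq2, -0.0036 with TMM scaling and -0.010 with the split, and ran between -0.025 and 0.074 with a replicate left out. For *kirre* it was 0.012 in *KahΔZnF* with the split, and with a replicate left out ran between -0.14 and 0.042 in *KahΔZnF* and between -0.012 and 0.15 in *KahΔATG*. Between the mutants, *blow* ran between -0.15 and 0.012 and *rst* between -0.11 and 0.061.

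Whether replicate numbers pair the libraries was not settled by correlations, across genes, of their deviations from group means. Between *KahΔATG* and *w1118* same-numbered libraries correlated at 0.25, 0.092 and 0.12, and other pairs at -0.22 to 0.11. Between *KahΔZnF* and *w1118* same-numbered libraries correlated at -0.26, -0.097 and -0.098, and other pairs at -0.13 to 0.20. A replicate block gave 2840 genes called in *KahΔATG*, 5334 in *KahΔZnF* and 1985 between the mutants, and changed no call of the 10 fusion genes at the limit of 0.59. At an adjusted p of at most 0.05 with no limit on size, the block gave 4 fusion genes in place of 2 in *KahΔATG*, where *lmd* (adjusted p = 0.0039) and *mbc* (0.047) passed, and 3 in place of 4 in *KahΔZnF*, where *rst* did not (0.087). The reads of *sing*, between 105 and 235 per library after scaling, are the fewest of the 10, and their overlap with *Axs* limits that gene further.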
